A study of Saccharomyces cerevisiae with 11 samples.

Results

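Glycolysis splits glucose to pyruvate, gluconeogenesis runs the route back where sugar is scarce, and yeast stores surplus glucose as glycogen and trehalose. Budding yeast (Saccharomyces cerevisiae) meets the whole range of these states between growth on glucose and sporulation on acetate, and storage carbohydrates are made and broken down on the way to spores. Where on these mRNAs ribosomes begin is described here for 37 genes: 17 of glycolysis, 4 of gluconeogenesis, 7 of glycogen, 3 of glucose phosphate and UDP-glucose conversion, and 6 of trehalose. They were taken by gene name from the deposited annotation of the SK1 strain, in which all 37 were found, and they carry 1602 of the 192230 candidate open reading frames (ORFs) in the deposited table, which spans 5699 genes.

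The study mapped start codons by ribosome profiling, the sequencing of RNA fragments that ribosomes protect, after cells had been held with 3 µM lactimidomycin (LTM), a drug that stops ribosomes at the codon where they begin. The libraries came from SK1 cells 0, 1.5, 3, 4.5, 6, 8, 10 and 22 h after transfer to sporulation medium, from MATa/a cells, which lack the mating-type combination needed for meiosis, at 4.5 h, and from vegetative cultures in exponential (OD600 of 0.6) and saturated (OD600 of 10) growth. Vegetative cultures grew in YEPD at 30 °C, while those for sporulation spent 24 h in YEPD at 22 °C and 16 h in BYTA before the transfer, so the groups differ in temperature too. The labels give no other allele. These are 11 libraries with 1 per group, and the table has a single value per candidate ORF and 0 columns for single libraries, so no level per library, no depth, no replicate error and no comparison between growth and sporulation is given here.

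Each candidate has a forest score from 0 to 1, which is the output of a classifier that the authors trained on annotated and other coding sequences, and a candidate scoring above 0.5 is called rated. LTM evidence is the authors' statistic for a start codon in the LTM data, and the CHX value is their regression value for the same start in a data set named CHX, which the notes do not describe. Both enter the forest score, so they do not stand apart from it. Neither has a stated scaling to depth or transcript length, so values of different genes are compared as scores and not as expression levels. Shares carry exact (Clopper-Pearson) 95% intervals, which cover counting error only, since ORFs of a gene share its transcript. Beside most counts of 0 for a class of ORFs stand the exact upper limit and the share that 3 counts would make. No test was made, because the table holds no replicates.

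Some starts before the annotated AUG carry most of what follows, and their surroundings are shown here so that the codons can be read. The bases come from the S288C reference genome (R64), at the same distance from the annotated start as in SK1, where codon and reading frame were the same. Each run has 12 bases before the start codon and 15 after it, with the start codon in capitals, and also the stop codon where it falls inside the run. For GLG1 the second AUG in capitals is the annotated start.
GLG1 AUG 6 nt before the annotated start: cgtactagtgtgATGggaATGtataagaag
GLG1 AUG 111 nt before: gggtgcctgaaaATGtttgttgcttgtaag
GSY2 AUG 90 nt before: ctttccttaaatATGttagctatctctaaa
GSY2 UUG 26 nt before: gtgattgaagttTTGactacctcagagaaa
NTH1 AUU 158 nt before: cattagctagaaATTttccccctatcgttt
PYC2 AUA 54 nt before: ctatattgcaaaATAaaggacagttacTAG
GPH1 UUG 114 nt before: agtaagcacagaTTGagaaggTAAcgatta
UGP1 GUG 18 nt before: cttccacagcaaGTGtaccataacataata
In R64 they lie on the plus strand of chrXI:552752-552781 and chrXI:552647-552676 (GLG1), chrXII:660614-660643 and chrXII:660678-660707 (GSY2), chrXVI:861180-861209 (GPH1) and chrXI:369861-369890 (UGP1), and on the minus strand of chrIV:452616-452645 (NTH1) and chrII:662286-662315 (PYC2). All these start codons lie before the annotated coding sequence, which the run of GLG1 enters at its second AUG and that of GSY2 UUG stops short of. The ends of the mRNAs were not examined.

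An annotated ORF was among the rows analysed here for 35 of the 37 genes, and all 35 were rated (exact 95% interval 90.0 to 100%), beside 93.3% of the 4814 annotated ORFs in the whole table. The classifier was trained on annotated coding sequences among others, so this count is no independent check. Their forest scores ran from 0.670 to 0.981 with a median of 0.928, against a median of 0.896 over all annotated ORFs. The median LTM evidence was 7166 for the members and 2956 for all annotated ORFs, and the median CHX value was 2.61 for the members and 0.295 for all. In 29 of the 35 the CHX value lay above the median of the table, and in 24 the LTM evidence did. GLG1, which starts glycogen chains, and GPH1, the phosphorylase that breaks glycogen down, had no annotated ORF among the rows analysed here.

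Among the enzymes of the upper part of glycolysis, the annotated start of TPI1, triose phosphate isomerase, had the highest forest score of all members (0.981). PFK2, the beta subunit of phosphofructokinase, had LTM evidence of 60750, above that of 99.3% of annotated ORFs. PFK1, the alpha subunit, had 654.2 and lay above 25.6%. The subunits of this enzyme thus stood far apart in this score. FBA1, the aldolase, combined low LTM evidence (636.5, above 25.2%) with a high CHX value (19.89, above 99.2%). HXK2, the hexokinase that prevails during growth on glucose, had LTM evidence of 11290 but a CHX value of 0.0489, above only 13.8% of annotated ORFs.

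All 9 enzymes of the lower part, from TDH1 to pyruvate kinase, had CHX values above the median of the table. GPM1, phosphoglycerate mutase, reached 18.48, PGK1, phosphoglycerate kinase, 16.83, and TDH2, a glyceraldehyde phosphate dehydrogenase, 16.02. PYK2, the minor pyruvate kinase, was lowest of the 9 at 0.621, and CDC19, the main one, had 6.631. LTM evidence ordered them otherwise: TDH1 led with 57300, and PGK1 (1351) and CDC19 (1569) were lowest. The lowest annotated start of all 35 by score and by LTM evidence was that of PGM1, the minor phosphoglucomutase, with a score of 0.670 and LTM evidence of 78.66. The highest LTM evidence belonged to UGP1, which makes UDP-glucose, at 72540 (above 99.6% of annotated ORFs).

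**Figure D1:**
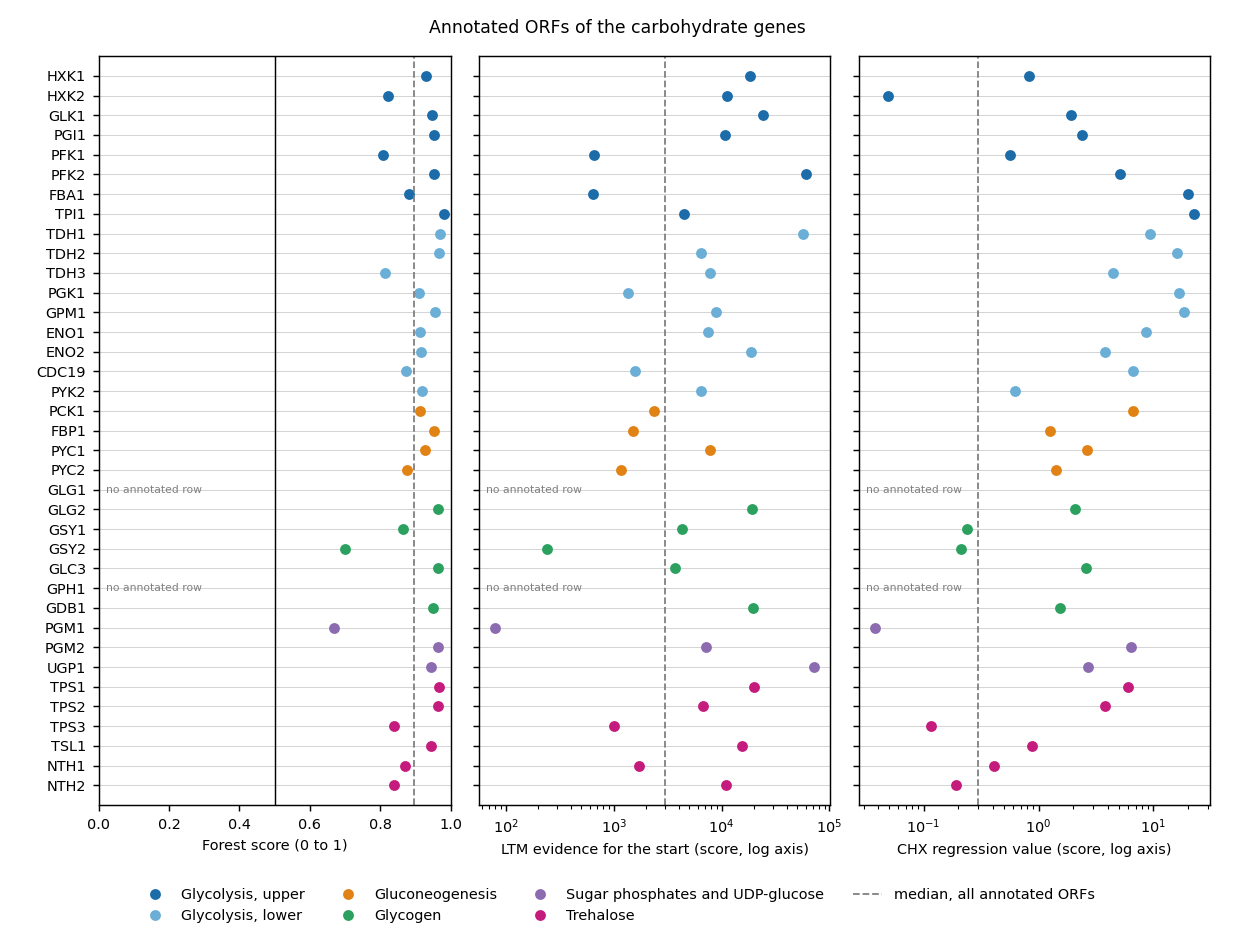
Forest score, LTM evidence and CHX regression value (x axes, the last 2 logarithmic) of the annotated ORF of each gene (y axis, coloured by pathway), with the median of all 4814 annotated ORFs as a dashed line and the 0.5 cut-off as a solid line. All 35 points lie right of the cut-off, with GSY2 at 0.701 and PGM1 at 0.670 the lowest, and 29 lie right of the median CHX value.

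Isozymes were set side by side. The trehalose synthase subunit TPS3 had LTM evidence of 1008 and its partner TSL1 15490, a ratio of 0.0651. GSY1 and GSY2, the glycogen synthases, had 4281 and 239.1 (ratio 17.9), with nearly equal CHX values of 0.240 and 0.211. PGM1 stood at 0.0110 of PGM2 by LTM evidence and at 0.00588 by CHX value. NTH1 and NTH2, the neutral trehalases, had LTM evidence of 1716 and 10900 but CHX values of 0.409 and 0.189. The order thus turned between these measures. It also turned for CDC19 and PYK2 (LTM ratio 0.242, CHX ratio 10.7), for ENO1 and ENO2, the enolases (0.398 and 2.26), for TDH1 and TDH2 (8.90 and 0.582), and for TDH2 and TDH3 (0.817 and 3.60). It did not for HXK1 and HXK2 (1.63 and 16.9), for PYC1 and PYC2, the pyruvate carboxylases (6.68 and 1.86), or for TDH1 and TDH3 (7.27 and 2.10). The CHX value is a regression value, so it differs from LTM evidence in kind as well as in data set. It also belongs to a single start, and other starts in the same frame had higher values in NTH1, NTH2, TDH3, ENO1 and ENO2, among others. By the strongest start with the same stop, NTH1 and NTH2 had 0.708 and 1.179, and TDH2 and TDH3 16.02 and 41.26. Both pairs then had the order of LTM evidence. TDH1 and TDH3 (9.32 and 41.26) then had the opposite order, and ENO1 and ENO2 (21.48 and 7.573) stayed turned. By CHX evidence, the matching statistic, CDC19 and PYK2 had 25.17 and 159.5. ENO1 and ENO2 had 6.802 and 35.64, and TDH1 and TDH2 853.2 and 186.9. These pairs kept the order of LTM evidence. The order by CHX evidence was opposite for NTH1 and NTH2, TDH2 and TDH3, PYC1 and PYC2, and TPS3 and TSL1. None of these ratios has an error.

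Some of these copies share part of their sequence, where short reads cannot tell them apart. In S288C, 54.6% of the 28-base windows in the coding sequence of TDH2 occur elsewhere in the genome, 47.2% of those in TDH3, 28.8% in TDH1, 42.4% in ENO1 and in ENO2, and 14.0% in PYC1 and in PYC2. Of the first 60 windows, all were shared in both enolases, and 35.0% in TDH3, 33.3% in TDH2 and 18.3% in TDH1. How the authors treated reads with more than a single match is not given in the sources used here, so the values of ENO1, ENO2 and the TDH genes are uncertain as values of single genes, although part of each is unique. TDH2 and TDH3 are 95.8% identical over 999 coding bases and ENO1 and ENO2 94.8% over 1314. NTH1 and NTH2 shared 6 windows each, and the other 28 members shared none.

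Inside the coding sequences, LTM evidence and CHX value placed the strongest start differently. They are statistics of different kinds, and no ranking by CHX evidence is given here. By LTM evidence the annotated AUG was the strongest of all ORFs with its stop codon in 35 of 35 members, against 94.3% of the 4814 annotated ORFs in the table. By CHX value it was the strongest in 20 of 35 (57.1%), against 63.8% in the whole table. In the other 15 the strongest was a truncation, a start further inside the same frame. TDH3 had a UUG start 60 nt downstream with 9.28 times the CHX value of its annotated AUG, NTH2 a UUG start 105 nt downstream with 6.22 times, and HXK2 an AUG 45 nt downstream with 5.47 times. LTM evidence at these 15 internal starts was at most 11.68, that of NTH2, and their forest scores ran from 0.0398 to 0.347. None of the 15 was rated.

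No truncation of any member was rated. That was 0 of 269 candidates (upper limit 1.36%, 3 counts being 1.12%), beside 2.71% of all truncation candidates in the table. For AUG truncations it was 0 of 36 (upper limit 9.74%, 3 counts being 8.33%), beside 10.3%. For near-cognate ones it was 0 of 233 (upper limit 1.57%, 3 counts being 1.29%), beside 1.38%, which lies within that limit. The 269 include 3 candidates assigned to HXK1 that begin past its stop codon and end at another one, so they are no shorter forms of HXK1. The best of these, an AUG, scored 0.329. Without them it was 0 of 266 (upper limit 1.38%), and for AUG starts 0 of 34 (upper limit 10.3%, the same as the share in the table). Among those that end at the stop codon of their gene, the nearest to the cut-off was an AUG 63 codons inside GLK1, the glucokinase, at 0.417, followed by an AUU 87 codons inside PGM1 at 0.347, a UUG 35 codons inside NTH2 at 0.325 and an AAG 68 codons inside NTH1 at 0.238.

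N-terminal extensions, which add codons upstream in the same frame, were rated in 2 of 20 candidates (10.0%, exact 95% interval 1.23 to 31.7), beside 4.57% in the whole table. Near-cognate extensions were rated in 1 of 19, beside 3.64%. The stronger was the AUG of GLG1 shown above, 2 codons upstream of the annotated start at position 559588 of SK1 chromosome 11 (plus strand). It scored 0.815 with LTM evidence of 394.5 and the highest CHX value of any candidate with that stop (0.474). It was the only AUG extension among the members, and AUG extensions were rated in 40.6% of 69 cases in the table. In the printed run, a single codon stands between this AUG and the annotated AUG of GLG1. The annotated ORF was not among the rows analysed here, so the pair cannot be compared.

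The other rated extension was the GUG of UGP1, 6 codons upstream at position 375484 of SK1 chromosome 11, with a score of 0.622. Its LTM evidence was 163.9, against 72540 at the annotated AUG, a ratio of 0.00226. That was the lowest ratio among the 99 rated extensions in the table that could be paired with an annotated ORF, whose median was 0.195. The ratio exceeded 1 in 25.3% of those 99. It lies inside YKL036C, a dubious ORF on the opposite strand. The other 18 candidates, in 11 genes in all, scored 0.138 or less. ENO2 (AUA, 1 codon upstream, 0.138) and CDC19 (AUC, 2 codons upstream, 0.124) were next. Candidates of FBA1, GPM1, TPI1, PFK1, GLK1, GLC3, the glycogen branching enzyme, and NTH1 stood between 0.0144 and 0.0614.

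Upstream ORFs begin before the annotated start, and all rated ones of the members also ended before it. Such ORFs can hold back the initiation of ribosomes at the main start. The members had 310 candidates, of which 54 were rated (17.4%, exact 95% interval 13.4 to 22.1), beside 22.0% in the whole table. The order turned at stricter score cut-offs, with 5.16% of the members' candidates and 4.92% of all above 0.8, and 1.29% and 1.15% above 0.9. At least 1 was rated in 21 of 37 genes, or 56.8%, against 58.2% of genes with such a candidate, so the number of genes was near the background. The share for AUG starts was 12 of 68 (17.6%), beside 29.3%, and for near-cognate starts, which differ from AUG in a single base, 42 of 242 (17.4%), beside 19.4%.

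Trehalose genes had the highest share and the lower glycolytic enzymes the lowest. For trehalose 17 of 43 candidates were rated (39.5%, exact 95% interval 25.0 to 55.6), in 5 of 6 genes. All 17 began at a near-cognate codon, but only 4 of the 43 candidates were AUG. NTH1 alone had 8 of the 17. Some of the 17 are nested and end at the same stop codon. These are the starts of NTH1 at 101 and 71 nt and at 69 and 63 nt. The others are those of TPS3 at 121 and 73 nt and of TPS2 at 59 and 56 nt. For glycogen 15 of 66 were rated (22.7%, 13.3 to 34.7), in 6 of 7 genes, and 8 of them began at AUG, out of 21 AUG candidates. In the lower part of glycolysis only 2 of 71 were rated (2.82%, 0.343 to 9.81). In the upper part it was 12 of 67 (17.9%, 9.61 to 29.2), in gluconeogenesis 4 of 36 (11.1%, 3.11 to 26.1), and for PGM1, PGM2 and UGP1 together 4 of 27 (14.8%, 4.19 to 33.7). These intervals take candidates as independent, although those of a gene share its transcript, so their overlap is not read as a comparison. The difference between pathways was not tested.

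**Figure D2:**
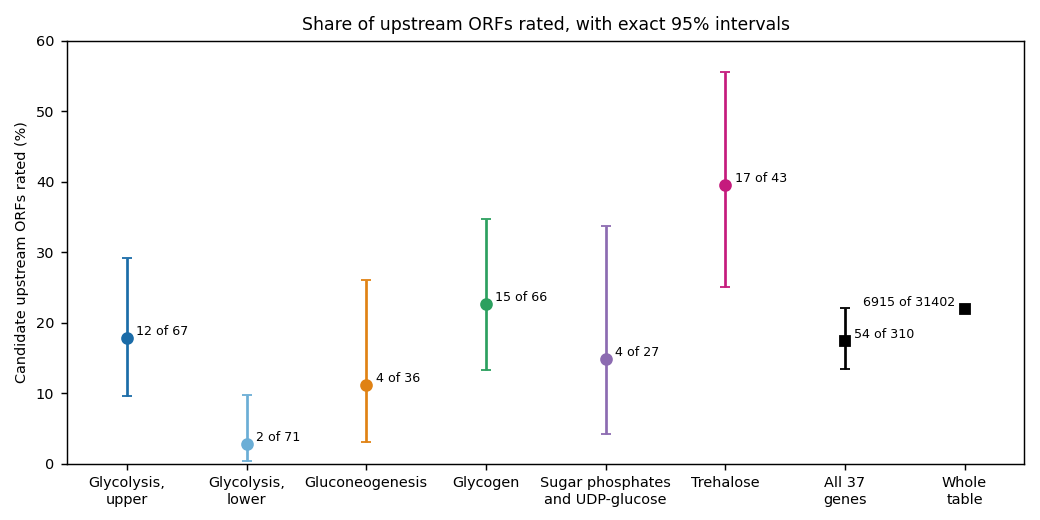
Share of candidate upstream ORFs that were rated (y axis, percent) for each pathway, for all 37 genes and for the whole table, with exact 95% intervals as bars and the counts beside each point. Trehalose genes reached 39.5% and the lower part of glycolysis 2.82%, against 22.0% in the whole table.

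The neutral trehalase NTH1, which splits stored trehalose, had the most rated upstream ORFs of all members, 8 of 13 candidates. They begin between 158 and 63 nt before the annotated AUG, all at near-cognate codons. The strongest was the AUU 158 nt before it (position 464882 of SK1 chromosome 4, minus strand), an ORF of 9 codons with a score of 0.946. Its LTM evidence was 2271, against 1716 at the annotated AUG (ratio 1.32). Its CHX value was 4.517, against 0.409 at the annotated AUG, which is 11.03 times as high. The annotated AUG was not the strongest of its frame by this value, and an unrated AAG 204 nt downstream had 0.708. Among the 48 rated upstream ORFs of members with an annotated ORF, only this AUU had a CHX value above that of its annotated start. The UUG at 101 nt (LTM evidence 1230, ratio 0.717) and the AUA at 71 nt (701.1, ratio 0.409) followed, and the other 5 had ratios between 0.00276 and 0.0214. NTH2 had 2 rated AUA starts, 115 and 81 nt upstream, with ratios of 0.0131 and 0.00357.

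GSY2, the main glycogen synthase, had 3 rated AUG upstream ORFs of 14 candidates. The AUG 90 nt upstream (position 653908 of SK1 chromosome 12, plus strand) opens an ORF of 19 codons and scored 0.831. Its LTM evidence of 3079 was 12.9 times the 239.1 of the annotated AUG, the highest such ratio among the members. Its CHX value was 0.0488, against 0.211 at the annotated AUG, so the order by CHX value was opposite. A UUG 26 nt upstream begins an ORF of 36 codons that runs over the annotated start in another frame. It scored 0.896, with 2.05 times the LTM evidence and 2.26 times the CHX value of the annotated AUG. By CHX value, however, the annotated AUG was not the strongest start of its frame. An unrated AAG 189 nt downstream had 0.856, above the 0.478 of the UUG. The AUG codons at 182 and 331 nt had ratios of 0.0621 and 0.0112. GSY1, its partner, had a single rated upstream ORF, an ACG at 139 nt that scored 0.5002, just above the cut-off.

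Both glycogen initiators had upstream starts. GLG1 had 4 rated of 15, 3 of them AUG. The AUG 111 nt upstream (position 559483 of SK1 chromosome 11), an ORF of 11 codons, scored 0.928 with LTM evidence of 3712, which is above the 394.5 of the rated extension of the same gene. Its CHX value was 0.760, against 0.474 for the extension. The AUG codons at 147 and 434 nt had LTM evidence of 17.67 and 3.499. GLG2 had a GUG at 48 nt that scored 0.896 with LTM evidence of 973.4, against 19170 at its annotated AUG. Its AUG at 313 nt scored 0.552 with LTM evidence of 1.645. The GUG and an AUU at 43 nt lie in YJL136W-A, an uncharacterized ORF on the opposite strand.

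GPH1 had 2 rated of 4. The UUG 114 nt upstream (position 868499 of SK1 chromosome 16, plus strand) opens an ORF of 3 codons, complete in the run shown above, and scored 0.923 with LTM evidence of 603.8. The AUG at 306 nt scored 0.806 with 362.2. GDB1, the debranching enzyme, had a CUG at 91 nt (score 0.712) and an AUA at 65 nt (0.533), and GLC3 had none of 8 rated.

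In trehalose synthesis, TPS3 had a UUG at 73 nt with a score of 0.841 and LTM evidence of 635, against 1008 at its annotated AUG (ratio 0.630), and a CHX value of 0.1085, against 0.1156. A second UUG at 121 nt had a ratio of 0.202. TPS1, the synthase, had 3 rated near-cognate starts and TPS2, the phosphatase, 2, of which the UUG at 56 nt scored 0.854, with ratios from 0.000432 to 0.0111. TSL1 had a single candidate, at 0.328, which was not rated.

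In glycolysis 6 of 17 genes had a rated upstream ORF, beside 58.2% of genes with such a candidate in the whole table. PFK1 had 4 rated near-cognate starts of 19 candidates, between 226 and 148 nt upstream, and its UUG at 184 nt (position 991540 of SK1 chromosome 7, minus strand) scored 0.860 with LTM evidence of 551.9, against 654.2 at the annotated AUG (ratio 0.844). Its CUG at 202 nt scored 0.833 (ratio 0.238). PFK2 had 3 of 6, with ratios of 0.000276 or less, since its annotated start had far more evidence. Their LTM evidence was also lower in itself, from 4.049 to 16.76, against 106.9 to 551.9 in PFK1. HXK1 had 3 of 7, of which the AUU at 59 nt scored 0.821, and PGI1, phosphoglucose isomerase, 2 of 8. HXK2 (9 candidates), GLK1 (4), FBA1 (7) and TPI1 (7) had none.

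Below TPI1, only TDH2 and CDC19 had a rated upstream ORF. That of TDH2 was an AUG at 62 nt with a score of 0.513 and LTM evidence of 2.808, against 6440 at the annotated AUG. That of CDC19 was a UUG at 85 nt with a score of 0.566 and LTM evidence of 2.695, against 1569. TDH1, TDH3, PGK1, GPM1, ENO1, ENO2 and PYK2 had none rated among 5, 1, 6, 3, 7, 7 and 14 candidates, and their best scores ran from 0.328 to 0.466.

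Among the gluconeogenic enzymes, PYC2 had an AUA at 54 nt (position 651034 of SK1 chromosome 2, minus strand), an ORF of 5 codons shown whole above. It scored 0.901 with LTM evidence of 1637, against 1163 at the annotated AUG (ratio 1.41), while its CHX value was 0.512, against 1.407. PCK1, phosphoenolpyruvate carboxykinase, had 3 rated of 22, with an AUG at 309 nt that scored 0.847 (LTM evidence 208.6, ratio 0.0886). FBP1, fructose bisphosphatase, had none of 5 and PYC1 none of 1. UGP1 had 3 of 6, of which the AUG at 133 nt scored 0.838, and all 3 lie inside YKL036C. PGM2 had an AUG at 93 nt at 0.619, and PGM1 none of 9.

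**Figure D3:**
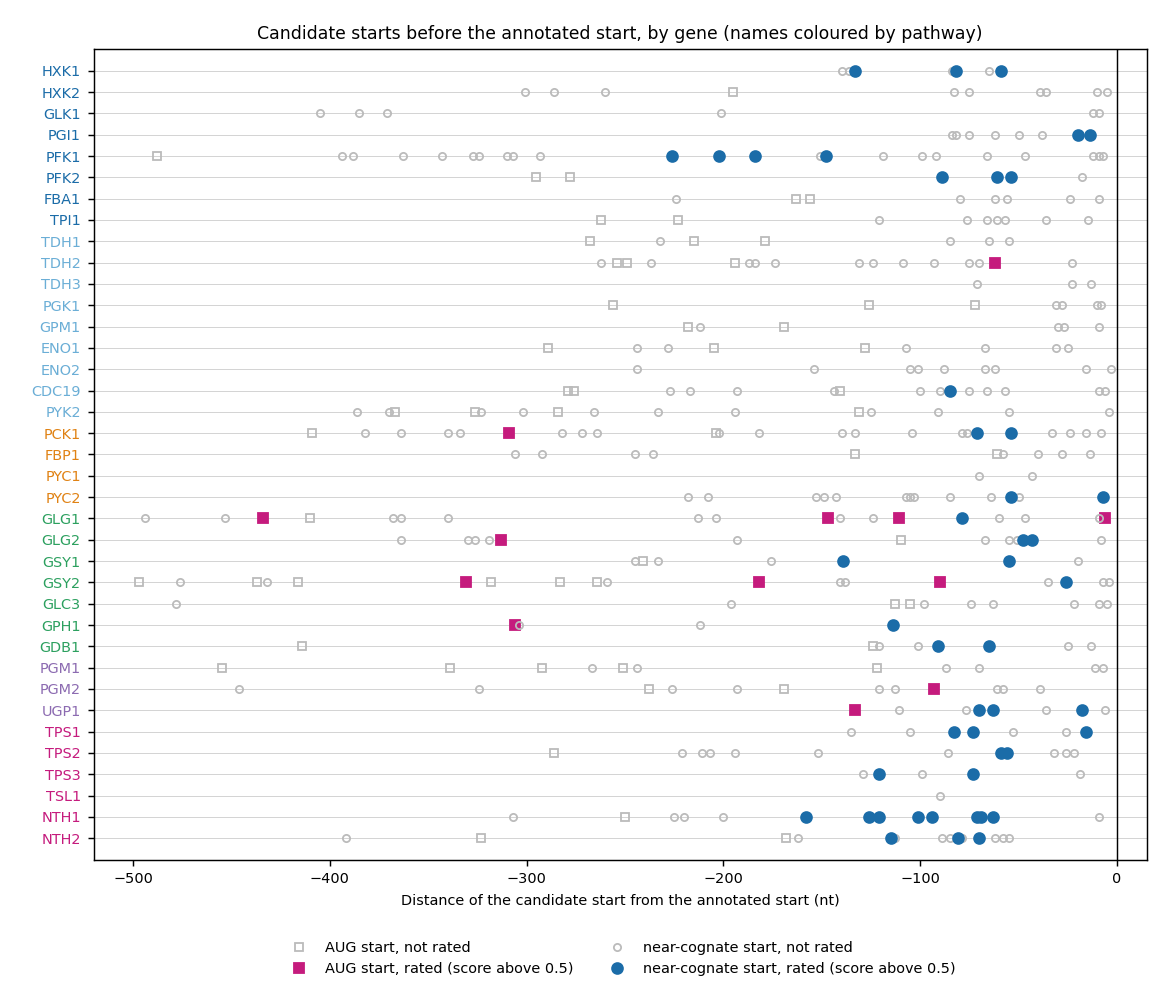
Candidate starts before the annotated start by gene (y axis, names coloured by pathway), at their distance in nt from the annotated start (x axis). Squares are AUG and circles near-cognate starts, filled where rated and open where not. NTH1 has 8 filled circles between 158 and 63 nt, the 3 rated AUG upstream ORFs of GSY2 lie at 331, 182 and 90 nt, and the rows from TDH1 to PYK2 have 2 filled points.

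Relative to the annotated AUG, rated upstream starts of the members mostly had little LTM evidence. Over the 48 with an annotated ORF to compare, the median ratio was 0.00332, against 0.0213 over 6288 such ORFs in the whole table. The denominators differ too: annotated starts had median LTM evidence of 7166 in the members and 2956 in the whole table. The ratio exceeded 1 in 3 of the 48 (6.25%), those of GSY2, PYC2 and NTH1, beside 16.8% in the whole table. It exceeded 0.1 in 11 (22.9%), beside 34.0% in the whole table. All 11 were in GSY2, PYC2, NTH1, PFK1 and TPS3, whose annotated starts, the denominators of the ratio, had LTM evidence above only 17.0 to 38.8% of annotated ORFs. A ratio of evidence is not a ratio of initiation rates.

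**Figure D4:**
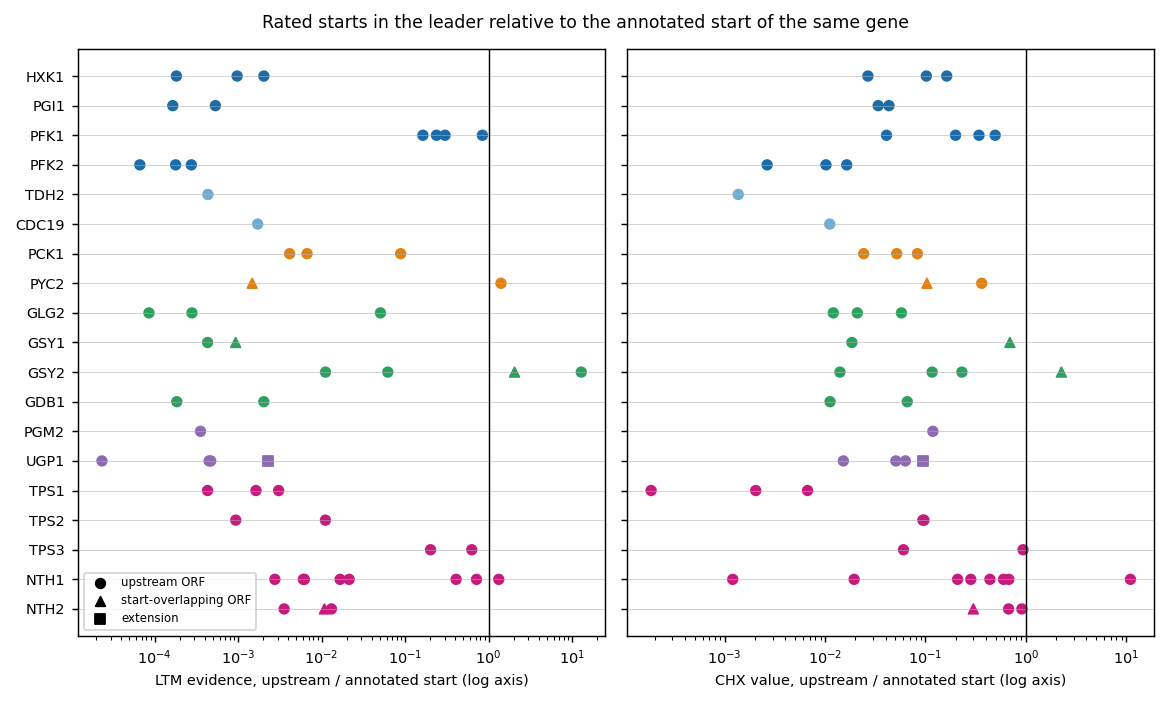
LTM evidence (left) and CHX value (right) of each rated start before the annotated start divided by that of the annotated start of the same gene (logarithmic x axes), by gene and coloured by pathway, with circles for upstream ORFs, triangles for start-overlapping ORFs and a square for the extension of UGP1. By LTM evidence 4 points lie right of 1, in PYC2 (1.41), GSY2 (12.9 and 2.05) and NTH1 (1.32), and by CHX value only the AUU of NTH1 (11.03) and the UUG of GSY2 (2.26) do. In NTH1 and GSY2 a start further inside the coding frame had a higher CHX value than the annotated start.

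Candidates that run out of frame across the annotated start were rated in 4 of 44 cases (9.09%, exact 95% interval 2.53 to 21.7), beside 20.2% in the whole table. All 4 began at near-cognate codons, of which there were 43 (beside 16.8%), and the only AUG candidate was not rated (beside 52.4%). LTM evidence exceeded that of the annotated start in 1 of the 4, beside 19.8%. Besides the UUG of GSY2 they were a UUG of NTH2 70 nt upstream, with 40 codons and a score of 0.847, a GUG of GSY1 55 nt upstream (0.643), and an AUA of PYC2 7 nt upstream (0.576). LTM evidence of the other 3 was between 0.000936 and 0.0108 of that of the annotated AUG.

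The 54 rated upstream ORFs were short, with a median of 7 codons and a range of 2 to 27, against a median of 10 in the whole table. They lay a median of 87 nt before the annotated start, against 124 nt in the whole table, and 32 of 54 (59.3%) lay within 100 nt, against 40.9%. They used 48 distinct stop codons, so some are nested forms of a single reading frame. The nested pairs lay in NTH1, TPS2, TPS3, PFK1 and PGI1. By codon, UUG had 11 rated of 44 (25.0%, beside 33.1% in the table), AUA 10 of 50 (20.0%, beside 16.7%), AUU 8 of 55 (14.5%, beside 16.7%) and ACG 4 of 18 (22.2%, beside 19.3%). CUG had 3 of 12 (25.0%, beside 26.2%), GUG 2 of 17 (11.8%, beside 20.6%) and AUC 2 of 23 (8.7%, beside 10.8%). AAG had 2 of 15 (13.3%, beside 4.07%). AGG had 0 of 8 (upper limit 36.9%, 3 counts being 37.5%), beside 4.44%.

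An A as the third base before the start codon is a common feature of start sites in yeast. In S288C, 27 of the 37 annotated starts of the members had it (73.0%), against 63.0% of 4741 genes with an annotated ORF in the table. The exceptions were PFK2, PYK2, FBP1, GLG1, GLG2, GSY2, GDB1, PGM1, TPS2 and TPS3. Among upstream starts with the same codon in S288C, the members had it in 22 of 50 rated (44.0%) and 61 of 203 unrated candidates (30.0%), against 40.4% and 34.6% in the whole table. Of the 60 rated starts before the annotated AUG, 55 had the same codon at the same distance in S288C and 53 also the same reading frame. The 5 with another codon there are the 3 of PCK1, the CUG of HXK1 at 133 nt and the GUG of GSY1. None of the 60 lay in an annotated coding sequence of the same strand in SK1, and 6 lay in one of the opposite strand, in UGP1 and GLG2.

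Out-of-frame starts inside the coding sequence were rated in 51 of 908 candidates (5.62%, exact 95% interval 4.21 to 7.32), beside 10.3% in the whole table. AUG starts among them were rated in 16 of 166 (9.64%, beside 23.0%) and near-cognate ones in 35 of 742 (4.72%, beside 7.45%). The notes warn of a very high rate of false calls for this class and for truncations. The best was an AUG 151 nt into PYC1 (score 0.918, LTM evidence 1123), and a second AUG 115 nt into PYC1 scored 0.856. A CUG 4 nt into PFK2, next to the annotated AUG, scored 0.912. Its LTM evidence was 590.4, against 60750 at that AUG (ratio 0.00972). An AUG 125 nt into GLG1 scored 0.894, with LTM evidence of 2092, and a GUG 355 nt into TPS1 0.838. PYC1 had the most, 9 of 61. Of 10 candidates over the annotated stop codon and 6 beyond it none was rated (upper limits 30.8% and 45.9%, 3 counts being 30.0% and 50.0%), beside 7.87% and 2.7% in the whole table.

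Other genes around these pathways were counted from a list of 66, of which 61 were in the table. Their upstream ORFs were rated in 99 of 424 cases (23.3%), beside 22.0%. Regulators, such as the transcription factor ADR1 and the phosphatase subunit REG1, had 69 rated of 203 (34.0%). REG1 had 12 of 22 and ADR1 10 of 21. Enzymes of fermentation and glycerol synthesis had 1 of 34 (2.94%) and those of the glyoxylate cycle and acetate use 2 of 31 (6.45%), while glucose transporters and sensors had 14 of 57 (24.6%). SGA1, the sporulation glucoamylase that breaks down glycogen, had 3 rated of 7 and ATH1, the acid trehalase, 4 of 12. PFK26 and PFK27, which make the activator of phosphofructokinase, each had 4 of 7. Of 43 candidate extensions in the list, 0 were rated (upper limit 8.22%, 3 counts being 6.98%).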

How the data were processed

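The series holds ribosome footprints of 11 LTM-treated SK1 libraries. The tools named are Bowtie2, CASAVA and bcl2fastq 2.17, per the submitters' processing notes. Settings and the handling of repeated sequence were not stated there. Per the notes deposited with the table, the authors' regressions gave LTM and CHX evidence, a score for each start, and a random forest turned 6 regression features into the forest score. The adjusted rating is a deposited score given above 0.5. The deposited ratio sets the CHX value of an ORF against the strongest with the same stop. Which libraries entered the deposited table (columns end in nosat) is not given. There were 0 columns for single libraries, so the planned comparison of libraries was not run and depth is unknown.

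Genes were found by the gene name in the deposited SK1 annotation; positions count from 1 in that annotation. Starts were placed in S288C (RefSeq, R64) only by distance from the annotated start. Counts, medians and exact intervals were computed with Python 3.11.15, pandas 2.3.3 and SciPy 1.17.1, and isozymes aligned with Biopython 1.88; functions were tested on simulated data. Members, lists and naming rules were chosen with earlier results of these data known. All members are accounted for. The rule names all rated extensions, start-overlapping and AUG upstream ORFs, the 10 best near-cognate upstream ORFs, and the 5 best internal and near-cognate truncated ORFs. Others named were chosen after their values were seen. Of 66 related genes, 63 were in the annotation by name.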

Additional observations from a re-analysis of the deposited data

How the results depend on the processing

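Of the 58 alternative values computed, 40 kept to the value given or within 1.5 times a count, and 18 did not. Some of the 40 could not have moved. Examples are annotated ORFs among members with a rated annotated ORF, and AUG truncations, already 0, at stricter cut-offs. Most of these 18 came with another score cut-off. Above 0.1, 309 upstream, 4 extension, 4 AUG truncation, 39 start-overlapping and 842 internal ORFs passed. Above 0.8 the counts were 16 upstream, 1 extension (GLG1), 2 start-overlapping and 7 internal ORFs. Above 0.9 they were 23 annotated, 4 upstream, 0 extensions, 0 start-overlapping and 2 internal ORFs. For upstream ORFs these were 99.7%, 5.16% and 1.29% of the members' candidates at 0.1, 0.8 and 0.9, against 97.6%, 4.92% and 1.15% in the table, so of these cut-offs the members' share was lower only at 0.5. Extensions were 20.0% against 23.3% at 0.1 and 5.0% against 1.24% at 0.8, start-overlapping ORFs 88.6% against 88.8% and 4.55% against 5.37%, and internal ORFs 92.7% against 94.3% and 0.771% against 1.16%. At 0.9 they were 0.0% against 0.146%, 0.0% against 1.43% and 0.22% against 0.218%. AUG truncations were 11.1% against 33.6% at 0.1, and annotated ORFs 65.7% against 47.8% at 0.9. With each gene counted once there were 21 genes with a rated upstream and 20 with a rated internal ORF. Keeping only members with a rated annotated ORF left 1 extension, that of UGP1. Leaving out starts inside another annotated coding sequence, an alternative chosen after seeing the data, left 1 extension, that of GLG1, and 49 upstream ORFs. Without the HXK1 candidates past its stop codon, also chosen after seeing the data, rated AUG truncations stayed at 0. The adjusted rating gave the same counts as the forest score, but it is given above 0.5, so these counts are no separate check. It gave the same order in every isozyme pair compared. No library could be left out, because no column belongs to a single library. No paired analysis was possible because each group has a single library and the table has no values per library. The alternatives of normalization and of a filter on low values for single libraries were not run.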
